A study of Homo sapiens with 6 samples.

Results

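Transcripts of 10 genes of the NF-κB pathway were followed in 6 RNA-seq libraries of U937, an established human line of monocytic origin. They are the subunit genes NFKB1, REL, RELA, NFKB2 and RELB, the inhibitor genes NFKBIA, NFKBIB and NFKBIE, and the feedback genes BIRC3 and TNFAIP3. The 10 were taken by name from the 18798 genes of the count table, all 10 were found under a single Ensembl identifier each, and all 10 had enough counts to be tested. They were picked by name with their levels and fold changes in these 6 libraries already known, so the members were in effect chosen on the CPM values described here. Differences between the groups in these 10 genes are therefore descriptions, and the p-values printed with them are not independent support.

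The 3 ΔNSPs libraries came from clones carrying plasmids that deplete the genes of 3 neutrophil serine proteases, CTSG, ELANE and PRTN3, at the same time, and the design text calls the clones independent. The 3 Control libraries came from lines carrying control plasmids. All 6 were genetically modified U937 cells kept under geneticin selection, the labels name no stimulus, and each ΔNSPs library stands for 1 clone. The labels do not say that replicates came from separate cultures of a clone or line, so the p-values measure the spread between these lines and clones.

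NF-κB proteins are dimers of Rel-family subunits. In the canonical arm, receptors such as those for TNF activate a kinase complex that marks IκB proteins for destruction, which frees dimers of RELA, REL and p50 (the product of NFKB1) to enter the nucleus. In the non-canonical arm, the kinase NIK (encoded by MAP3K14) leads to processing of p100, the product of NFKB2, to p52, which pairs with RELB. Both arms switch on genes that feed back on the pathway, and NFKB2, RELB, NFKBIA, BIRC3 and TNFAIP3 are themselves known targets of NF-κB.

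Library totals ran from 11476619 to 13782854. Levels are given as CPM, each count divided by the TMM-adjusted size of its library, on which 3 counts in a library correspond to 0.214 to 0.26 CPM. CTSG, ELANE and PRTN3 were lower in every ΔNSPs library than in any Control library, with CTSG at 45.2 to 135.7 CPM in ΔNSPs against 1894.8 to 2752.2 CPM in Control. Within Control, replicates 2 and 3 were the closest pair (chi-square over degrees of freedom 7.65), and replicate 1 was farther from each of them (18.9 and 16.4). Among the ΔNSPs clones it ran from 19.6 to 32.7. Results below are given with and without Control replicate 1 where they rest on it. Of the monocytic markers, CD33, SPI1, CEBPA, LYZ and CD4 were at 59.3 CPM or more in each library, while CD14, CD68, CSF1R and ITGAM had 11.7 CPM at most. KRT19, the epithelial marker in the table, had at most 0.337 CPM, and the T cell markers were not analysed here.

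The promoters of the 10 genes are shown first, because 7 of the genes carry a letter match to the κB consensus, the decamer to which NF-κB dimers bind, close to an annotated start. RefSeq windows (GRCh38.p14) of 250 bases before to 50 after a gene start were available for NFKB1, NFKB2, REL, RELA, NFKBIA, NFKBIB, BIRC3 and TNFAIP3, 13 windows in all. A match on either strand was present in 8 of these 13 windows (61.5%), against 2075 of 35114 windows of all genes (5.91%). By gene it was present in 7 of 8 members, 13 of 59 other listed pathway genes (22%) and 1937 of the 27303 genes with a window (7.09%). Neither RELA window held a match. A match is a description of the letters and not evidence of binding. The sites follow as 30 bases each on the strand of the gene, with the matching letters in capitals. Where matches overlap on both strands, their union is capitalised.
NFKB2, chr10:102394461-102394490: gaaacgtcatGGGAATTCCCCcctccgggg
NFKB2, chr10:102394490-102394519: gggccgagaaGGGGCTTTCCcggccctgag
NFKB2, chr10:102395519-102395548: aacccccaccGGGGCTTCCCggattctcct
NFKB2, chr10:102395674-102395703: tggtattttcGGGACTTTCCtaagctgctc
TNFAIP3, chr6:137867182-137867211: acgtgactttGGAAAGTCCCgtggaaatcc
TNFAIP3, chr6:137867194-137867223: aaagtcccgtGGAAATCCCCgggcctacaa
BIRC3, chr11:102317275-102317304: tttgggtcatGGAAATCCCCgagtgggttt
BIRC3, chr11:102317339-102317368: tattaccgctGGAGTTCCCCtaagtcctaa
NFKBIA, chr14:35404811-35404840: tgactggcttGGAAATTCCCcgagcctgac
REL, chr2:60881517-60881546: cgtcagccgcGGGAAATTCCCctcccgcca
NFKB1, chr4:102501300-102501329: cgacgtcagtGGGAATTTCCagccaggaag
NFKBIB, chr19:38899931-38899960: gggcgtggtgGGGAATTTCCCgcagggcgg

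Both matches of BIRC3, the gene of the 10 with the widest fold range between Control lines, lie within the stretch upstream of all its annotated exons, which is given whole on the plus strand of chromosome 11 (chr11:102317234-102317449), again with matches in capitals.
BIRC3 upstream: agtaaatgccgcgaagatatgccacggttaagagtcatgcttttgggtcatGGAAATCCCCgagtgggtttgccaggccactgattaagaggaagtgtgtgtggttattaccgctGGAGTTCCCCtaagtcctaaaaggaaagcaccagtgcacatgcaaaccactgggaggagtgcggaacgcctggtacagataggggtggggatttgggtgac

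The first comparison asked how the transcripts of the canonical subunits stood in ΔNSPs clones beside Control lines. NFKB1 and RELA were at nearly the same level in the groups, while REL was lower in each clone than in any Control line. NFKB1 (ENSG00000109320, chromosome 4, 102501329 to 102617302), which encodes p105 and its product p50, was at 50.5, 64.8 and 63.7 CPM in ΔNSPs clones 1 to 3, against 55.6, 67.1 and 61.3 CPM in Control replicates 1 to 3. The groups overlapped, and edgeR put the log2 fold change at -0.041 (SE 0.13, adjusted p = 0.893). RELA (ENSG00000173039, chromosome 11, 65653596 to 65663094), which encodes p65, was at 51.0, 60.2 and 49.9 CPM in the clones, against 48.1, 52.2 and 54.6 CPM in the Control lines. These too overlapped, and edgeR put the change at 0.057 on the log2 scale (SE 0.11, adjusted p = 0.822).

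REL (ENSG00000162924, chromosome 2, 60881521 to 60931610) encodes c-Rel, the subunit best known from lymphoid and myeloid cells. It was at 16.5, 21.9 and 21.2 CPM in ΔNSPs clones 1 to 3, against 23.3, 33.5 and 25.6 CPM in Control replicates 1 to 3. It was the 1 member whose groups did not overlap, in a table where all 3 ΔNSPs libraries lay below all 3 Control libraries for 11.7% of the genes tested. The gap between the highest clone and the lowest Control line was small, and the log2 fold change of -0.47 (SE 0.18) did not pass (edgeR adjusted p = 0.246, DESeq2 adjusted p = 0.191).

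The non-canonical subunits had a different pattern: in both, Control replicates 2 and 3 were high, and Control replicate 1 was as low as the clones. NFKB2 (ENSG00000077150, chromosome 10, 102394110 to 102402529), which encodes p100, was at 32.6, 24.7 and 29.3 CPM in the clones, against 31.2, 93.9 and 92.8 CPM in the Control lines. Replicates 2 and 3 had 3.01 and 2.97 times the level of replicate 1, so the Control SD (35.9 CPM around a mean of 72.6) was far wider than that of the clones (3.93 around 28.9). RELB (ENSG00000104856, chromosome 19, 45001430 to 45038198) was at 11.5, 9.54 and 16.2 CPM in the clones, against 8.17, 30.3 and 31.8 CPM in the Control lines. The low Control line lay below all 3 clones there.

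Over all 6 libraries NFKB2 had a log2 fold change of -1.33 (SE 0.37), which DESeq2 called (adjusted p = 0.00568) and edgeR did not (adjusted p = 0.178). Leaving out Control replicate 1, the low Control line, made it -1.69 (SE 0.14), and edgeR called it as well (adjusted p = 0.0177). Without Control replicate 2 or 3 it was -1.11 and -1.12 (edgeR adjusted p = 0.527 and 0.532). RELB had a log2 fold change of -0.92 (SE 0.46), with no call in edgeR (adjusted p = 0.332) or DESeq2 (0.188). With Control replicate 1 left out it was -1.32 (SE 0.23; edgeR adjusted p = 0.132, DESeq2 adjusted p = 0.000176). In genes low in that line, leaving it out widens the difference by construction. Calls made without it, here and below, are therefore descriptions.

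**Figure D1:**
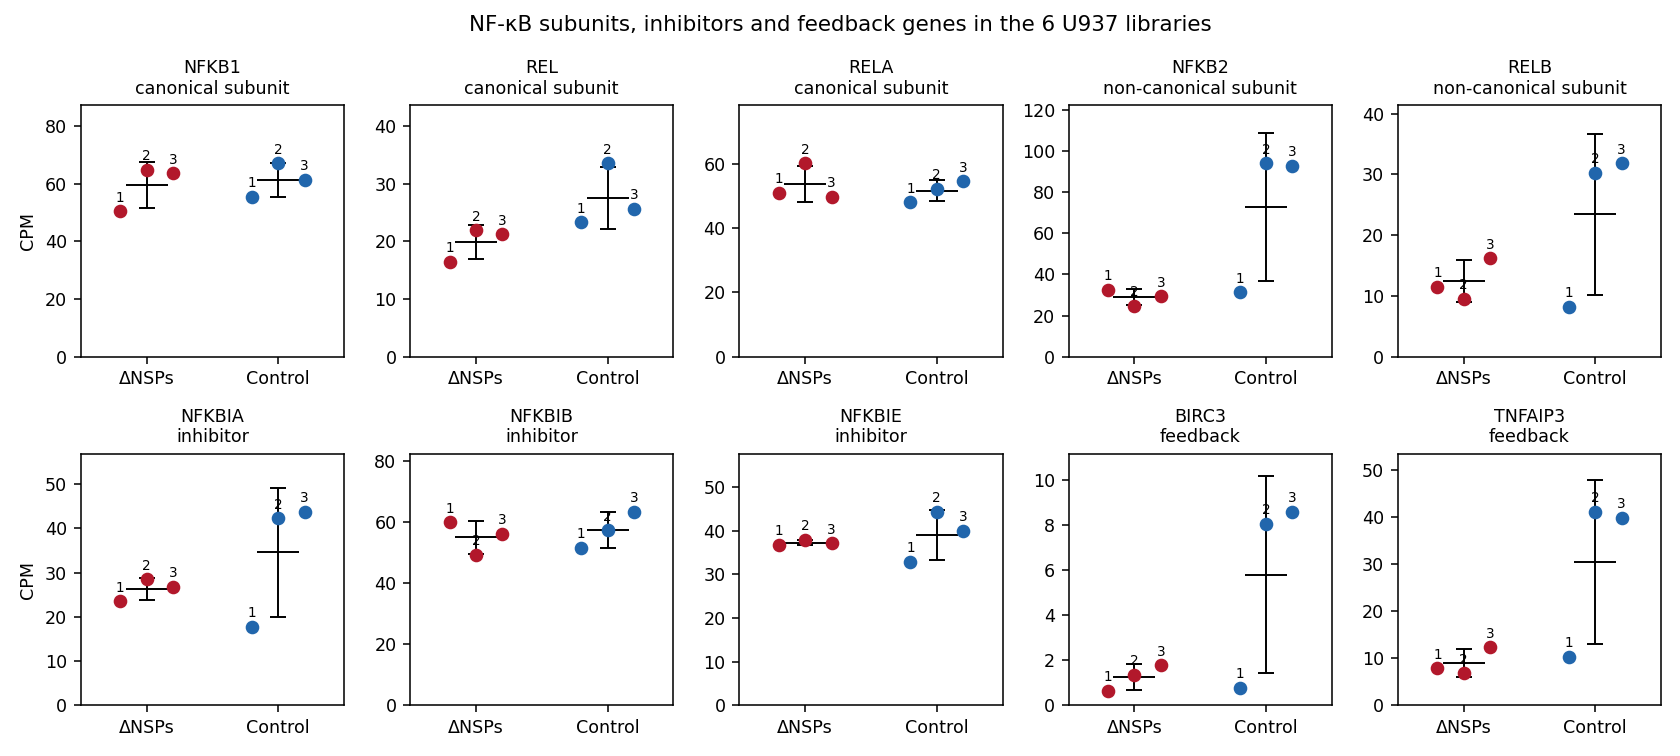
CPM (y axis, from 0) of the 10 genes in ΔNSPs and Control libraries, with replicate numbers beside the points and bars for the mean ± SD of 3 libraries. For NFKB2, RELB, NFKBIA, BIRC3 and TNFAIP3, Control replicate 1 lies near or below the clones and replicates 2 and 3 lie far above, as for NFKB2 with 31.2 CPM against 93.9 and 92.8 CPM.

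The arms were set against each other inside each library, since a ratio of genes from the same library does not depend on its scaling. The CPM ratio of NFKB2 to NFKB1 was 64.5%, 38.2% and 46.0% in ΔNSPs clones 1 to 3, against 56.2%, 140% and 151% in Control replicates 1 to 3. The ratio of RELB to RELA was 22.6%, 15.8% and 32.4% in the clones, against 17.0%, 58.0% and 58.3% in the Control lines. In both ratios Control replicate 1 fell within the range of the clones, and NFKB2 exceeded NFKB1 in Control replicates 2 and 3 alone. On the log2 scale the mean ratio of NFKB2 to NFKB1 was -1.05 ± 0.38 in ΔNSPs and 0.08 ± 0.79 in Control (SD, n = 3 each), a difference of -1.13. That of RELB to RELA was -2.14 ± 0.52 in ΔNSPs and -1.37 ± 1.02 in Control, a difference of -0.77. Without Control replicate 1 these differences were -1.59 and -1.36. No test was made of either ratio, because the genes were chosen with these values known.

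**Figure D2:**
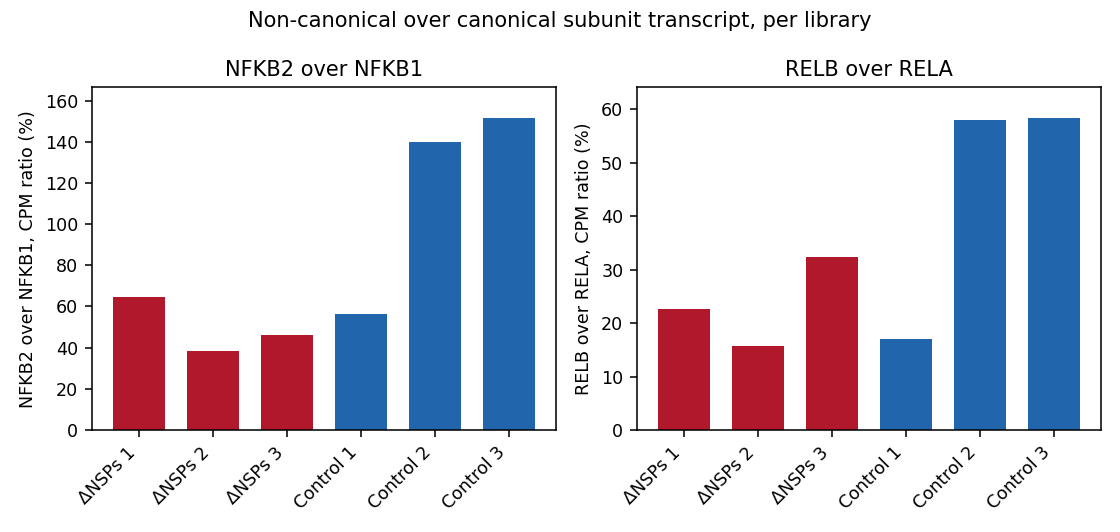
Ratio of NFKB2 to NFKB1 (left) and of RELB to RELA (right) in CPM, as a percentage per library, from 0. NFKB2 was at 140% and 151% of NFKB1 in Control replicates 2 and 3 and at 38.2% to 64.5% in the other 4 libraries.

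Of the inhibitors, which hold NF-κB dimers in the cytoplasm, NFKBIA followed the non-canonical subunits in its pattern, and NFKBIB and NFKBIE varied little. NFKBIA (ENSG00000100906, chromosome 14, 35401511 to 35404749) encodes IκBα, the inhibitor that is rapidly made again after each round of activation. It was at 23.5, 28.5 and 26.7 CPM in ΔNSPs clones 1 to 3, against 17.7, 42.3 and 43.7 CPM in Control replicates 1 to 3. As with RELB, 1 Control line lay below all clones and the other 2 above them. The log2 fold change was -0.40 (SE 0.31; edgeR adjusted p = 0.516), and without Control replicate 1 it was -0.71 (SE 0.14; edgeR adjusted p = 0.142, DESeq2 adjusted p = 0.00322).

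NFKBIE (ENSG00000146232, chromosome 6, 44258166 to 44265788), which encodes IκBε, was at 36.8, 38.0 and 37.1 CPM in the clones, against 32.8, 44.3 and 40.0 CPM in the Control lines. NFKBIB (ENSG00000104825, chromosome 19, 38899700 to 38908893), which encodes IκBβ, was at 60.0, 49.3 and 56.2 CPM in the clones, against 51.7, 57.4 and 63.4 CPM in the Control lines. The edgeR log2 fold changes were -0.065 (SE 0.13) for NFKBIE and -0.06 (SE 0.12) for NFKBIB, with adjusted p = 0.821 and 0.824. The level of NFKBIB is uncertain, because its exons overlap those of SIRT2 on the opposite strand (41.1 to 46.7 CPM in ΔNSPs, 55.7 to 74.3 CPM in Control) and the strand setting of the counting is not given in the sources used here.

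The feedback genes differed most between libraries. TNFAIP3 (ENSG00000118503, chromosome 6, 137867188 to 137883312) encodes A20, a ubiquitin-editing enzyme that shuts off signalling to the IκB kinase. It was at 7.84, 6.81 and 12.3 CPM in ΔNSPs clones 1 to 3, against 10.3, 41.1 and 39.9 CPM in Control replicates 1 to 3. Control replicate 1 lay between clones 1 and 3, and the other Control lines had 4 and 3.87 times its level. The antisense gene AL357060.1, which overlaps its exons, had 0.926 to 1.85 CPM in ΔNSPs and 1.82 to 2.75 CPM in Control.

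BIRC3 (ENSG00000023445, chromosome 11, 102317450 to 102339403) encodes cIAP2, a ubiquitin ligase that acts at TNF receptors and, with TRAF2 and TRAF3, holds NIK low. It had 9, 18 and 21 counts in the clones (0.642, 1.36 and 1.77 CPM), against 9, 111 and 99 counts in the Control lines (0.766, 8.04 and 8.58 CPM). Control replicate 1 was again inside the range of the clones, and at 9 counts its level is known only coarsely. The adjacent paralog BIRC2, which encodes cIAP1 and was looked at after its values were seen, did not follow: it was at 17.8, 22.1 and 19.5 CPM in ΔNSPs, against 20.8, 22.1 and 19.2 CPM in Control.

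Over all libraries the log2 fold change of TNFAIP3 was -1.76 (SE 0.49), with an adjusted p of 0.178 in edgeR and 0.0834 in DESeq2. In the 5 libraries other than Control replicate 1 it was -2.18 (SE 0.25) and passed in edgeR (adjusted p = 0.0487). For BIRC3 it was -2.21 (SE 0.78), called by DESeq2 (adjusted p = 0.0394) and not by edgeR (adjusted p = 0.219). In those 5 libraries it was -2.73 (SE 0.40; edgeR adjusted p = 0.104, DESeq2 adjusted p = 2.44e-06). Without Control replicate 2 or 3, the edgeR adjusted p was 0.527 and 0.532 for TNFAIP3. For BIRC3 it was 0.544 and 0.541.

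**Figure D3:**
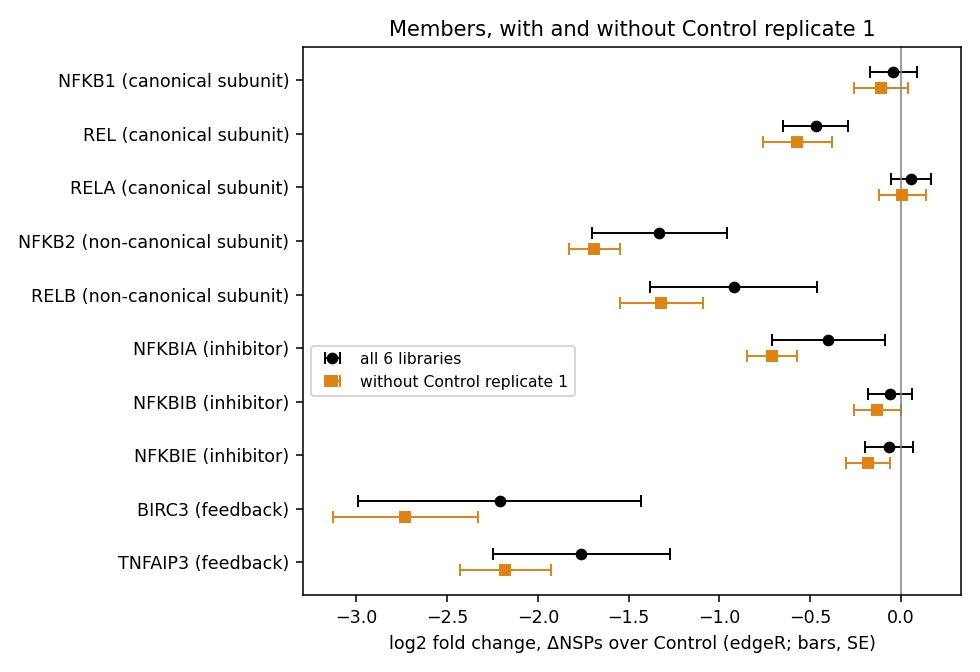
edgeR log2 fold changes (x axis, ΔNSPs over Control) of the 10 genes with bars for the SE, from all 6 libraries (black) and without Control replicate 1 (orange). BIRC3, TNFAIP3, NFKB2 and RELB lie at -2.21, -1.76, -1.33 and -0.92 with all libraries and move to -2.73, -2.18, -1.69 and -1.32 without that line.

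Across the 10 genes, edgeR called 0 at an adjusted p under 0.05, where it called 0.0203% of the 14797 genes tested. At an unadjusted p under 0.05 edgeR had 4 members, all lower in ΔNSPs (BIRC3, NFKB2, REL and TNFAIP3), against 17.8% of the genes tested in either direction and 8.6% lower. DESeq2 called 2 of the 10, BIRC3 and NFKB2, both lower, with 3.98% of its 12944 genes called and 2.07% lower. A voom fit in limma that weights samples by quality had 0 of the 10, with 0.0135% of genes called, and 3 of the 10 (NFKB2, TNFAIP3 and REL) at an unadjusted p under 0.05, against 24.5% of all genes. Leaving out Control replicate 1, edgeR called 2 lower, NFKB2 and TNFAIP3 (0.131% of 15232 genes called, 0.125% lower). DESeq2 then called 5 lower, BIRC3, NFKB2, NFKBIA, RELB and TNFAIP3 (4.73% of 13327 genes called, 2.4% lower). Leaving out ΔNSPs clone 1, edgeR called 6.17% of 15050 genes and 0 of the 10, with 2 (NFKB2 and TNFAIP3) at an unadjusted p under 0.05, against 26.5% of all genes. The median log2 fold change of the 10 was -0.43, beside 0.002 for all genes tested, and 9 of the 10 were below 0. Since the genes were picked in view of this contrast, no more is read from these counts.

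Described by library, 7 of the 10 had Control replicates 2 and 3 above all other libraries (NFKB2, RELB, NFKBIA, NFKBIE, BIRC3, TNFAIP3 and REL), an arrangement found in 14.5% of the genes tested. For BIRC3, NFKB2 and TNFAIP3 the lower of these lines was at least 2-fold above every other library, as in 29 of the 14797 genes (0.196%). Genes too low to be tested are outside this count. CXCL10 is one, at 39.8 and 38.6 CPM in these lines and 0.356 CPM at most elsewhere. Of the 7 genes with a κB match, 5 had Control replicates 2 and 3 above all other libraries (NFKB2, REL, NFKBIA, BIRC3 and TNFAIP3). NFKB1 and NFKBIB did not, and RELA, with no match, did not either. RELB and NFKBIE had that arrangement but no promoter window. A link between match and arrangement was not tested.

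Neighbouring genes did not share these levels. For each of the 10 genes, the other genes within 5 Mb (11 to 187 genes, each averaging 5 CPM or more) had median log2 levels, relative to the mean of the 6 libraries, between -0.13 and 0.16 in each library. NFKB2 stood at 1.11 and 1.09 on that scale in Control replicates 2 and 3, beside 0.01 and -0.00018 for its 79 neighbours. BIRC3 stood at 1.61 and 1.7, beside 0.13 and -0.069 for its 11 neighbours.

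Some markers of other cell types moved with this arrangement. Of the B cell markers, PAX5 was at 8.41, 7.49 and 1.52 CPM in ΔNSPs clones 1 to 3 and 8.51, 18.8 and 16.0 CPM in Control replicates 1 to 3. CD79A was at 11.5, 18.4 and 22.3 CPM in ΔNSPs and 12, 8.11 and 12 CPM in Control, so PAX5 was highest in Control replicates 2 and 3 and CD79A was not. The erythroid markers summed to 86.0 to 115.6 CPM in ΔNSPs and to 74.6, 113.2 and 133.7 CPM in Control, nearly all of it HBB. Their part in the levels of the NF-κB genes was not tested. In bulk RNA, fewer cells that express a gene and less RNA per cell cannot be told apart.

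Levels of different genes were compared per kilobase of annotated exon length. NFKBIB was highest, at 23.7 ± 2.33 CPM per kb in ΔNSPs and 24.8 ± 2.51 in Control (SD, n = 3 each), followed in ΔNSPs by NFKBIE (14.5 ± 0.24) and NFKBIA (11.1 ± 1.05). The place of NFKBIB is uncertain, because its exons overlap those of SIRT2 on the opposite strand. RELA (9.83 ± 1.04 in ΔNSPs, 9.45 ± 0.602 in Control) and NFKB1 (9.53 ± 1.27 in ΔNSPs, 9.80 ± 0.92 in Control) did not differ beyond their spread. NFKB2 was at 6.44 ± 0.877 CPM per kb in ΔNSPs and 16.2 ± 8 in Control, so its place below NFKB1 in the clones was not kept in the Control mean. RELB followed at 4.09 ± 1.12 in ΔNSPs and 7.72 ± 4.36 in Control, then TNFAIP3 at 1.78 ± 0.577 in ΔNSPs and 6.03 ± 3.45 in Control. REL was at 1.51 ± 0.224 in ΔNSPs and 2.08 ± 0.405 in Control. In ΔNSPs the gap between TNFAIP3 and REL was within their spread. BIRC3 was lowest, at 0.167 ± 0.0759 in ΔNSPs and 0.771 ± 0.58 in Control.

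The rest of the pathway was then read from a list written by role. Of 74 listed genes, 67 had a single identifier in the table and 62 were tested. In edgeR 1 of the 62 passed, CCL2, which was higher (1.61%, against 0.0203% of all genes tested), and 8 had an unadjusted p under 0.05, 6 of them higher and 2 lower (12.9%, against 17.8% of all). DESeq2 called 5 of 61 (8.20%, against 3.98%), with CCL2, CXCL8, TNF and TNFRSF12A higher and CXCL10 lower. The median log2 fold change of the 62 was 0.053, beside 0.002 for all genes tested. Apart from those genes, the highest of each role by CPM and the target check, genes named below were chosen after their values were seen.

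Among the ligands, TNF, the main activator of the canonical arm, was at 2.64, 4.54 and 10.1 CPM in ΔNSPs clones 1 to 3, against 1.45, 2.10 and 1.65 CPM in Control replicates 1 to 3. All clones lay above all Control lines, with a log2 change of 1.72 (SE 0.49; edgeR adjusted p = 0.181, DESeq2 adjusted p = 0.0259). How many of all genes were arranged so is not reported here. Without Control replicate 1 the DESeq2 call of TNF was lost (adjusted p = 0.107). TNFSF13B, which encodes the B cell factor BAFF, an activator of the non-canonical arm, was at 220.4, 361.4 and 410.6 CPM in the clones, against 334.7, 281.2 and 247.6 CPM in the Control lines. In that gene the groups overlapped (edgeR adjusted p = 0.662). The medians of the 5 ligands and 7 receptors tested were 0.51 and 0.21 on the log2 scale.

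Of the receptors, TNFRSF12A, which encodes Fn14, the receptor for TWEAK and an activator of the non-canonical arm, was higher in each clone. It was at 19.5, 16.3 and 24.3 CPM in ΔNSPs, against 9.62, 7.46 and 8.84 CPM in Control. The log2 fold change was 1.21 (SE 0.20), called by DESeq2 (adjusted p = 9.81e-05) and not by edgeR (adjusted p = 0.145). TNFRSF1A, the main TNF receptor, was at 170.3, 161.6 and 186 CPM in ΔNSPs, against 160.5, 148.3 and 138.6 CPM in Control (edgeR adjusted p = 0.329). CD40, a classical non-canonical receptor, was at 0.52 CPM or below in each library and was not tested.

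Of the adaptors and ubiquitin ligases, 0 of 15 were called by edgeR or DESeq2, with 1 higher at an unadjusted edgeR p under 0.05 (MYD88). IRAK1, a kinase below Toll-like and IL-1 receptors, had the highest mean and was at 318, 244.4 and 259.4 CPM in ΔNSPs, against 254.6, 231.8 and 210.9 CPM in Control (edgeR adjusted p = 0.371). TRAF3, which holds NIK low in resting cells, was at 74.9, 67.7 and 55.8 CPM in ΔNSPs, against 67.4, 100.6 and 92.9 CPM in Control, a log2 fold change of -0.39 (SE 0.17) with an edgeR adjusted p of 0.287. Control replicates 2 and 3 were again the highest.

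Of the kinases and their partners, 0 of 10 were called by either tool, with 1 lower at an unadjusted edgeR p under 0.05 (TAB1). IKBKE, an IκB kinase relative, was at 75.1, 73.1 and 63.3 CPM in ΔNSPs, against 57.7, 72.4 and 73.1 CPM in Control (edgeR adjusted p = 0.839). MAP3K14, which encodes NIK, was at 5.13, 6.81 and 5.47 CPM in ΔNSPs, against 4.94, 7.10 and 6.32 CPM in Control, with overlapping groups. IKBKB and SHARPIN, both on chromosome 8, were lowest in ΔNSPs clone 2, at 39.2 and 41.8 CPM. In the other libraries IKBKB ran from 56.4 to 62.1 CPM and SHARPIN from 57.5 to 62.5 CPM.

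The other inhibitors and feedback genes held further genes with Control replicates 2 and 3 highest, mostly by less than 2-fold. Of these 15 genes, 7 had both lines above all other libraries (BCL3, NFKBIZ, TNIP1, CYLD, N4BP1, ZC3H12A and OTUD7B). Over all 62 pathway genes tested it was 14 (22.6%, against 14.5% of all). Of the 7, only ZC3H12A had both lines at least 2-fold above every other library. In N4BP1 Control replicate 1, at 29.2 CPM, also lay above the clones (23.4 to 27.9 CPM), and replicates 2 and 3 were at 32.9 and 31.4 CPM. ZC3H12A encodes Regnase-1, an RNase that degrades inflammatory transcripts. It was at 15.5, 16.3 and 18.1 CPM in ΔNSPs, against 11.6, 41.0 and 40.2 CPM in Control, a log2 fold change of -0.89 (SE 0.41) with an edgeR adjusted p of 0.3. On leaving out Control replicate 1 edgeR called it (adjusted p = 0.0487).

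TNIP1, which encodes a partner of A20, was at 57.2, 54.3 and 57.4 CPM in ΔNSPs, against 57.7, 83.4 and 85.8 CPM in Control. CYLD, a deubiquitinase that restrains the pathway, was at 15, 18.8 and 16.5 CPM in ΔNSPs, against 11.1, 24.9 and 22.4 CPM in Control. NFKBIZ, an inducible nuclear IκB, was at 3.07, 5.22 and 5.14 CPM in ΔNSPs, against 2.47, 9.85 and 7.54 CPM in Control. None of the 3 passed in either tool with all libraries: the edgeR adjusted p was 0.229 for TNIP1, 0.718 for CYLD and 0.546 for NFKBIZ. Leaving out Control replicate 1, DESeq2 called TNIP1 (adjusted p = 0.00123) and not CYLD (0.149) or NFKBIZ (0.107). TAX1BP1 and NKIRAS2, the highest of their roles by CPM, overlapped between the groups, at 274.9 to 295 CPM in ΔNSPs against 276.3 to 334 CPM in Control for TAX1BP1, and at 41.9 to 48.4 CPM in ΔNSPs against 45.8 to 46.9 CPM in Control for NKIRAS2.

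**Figure D4:**
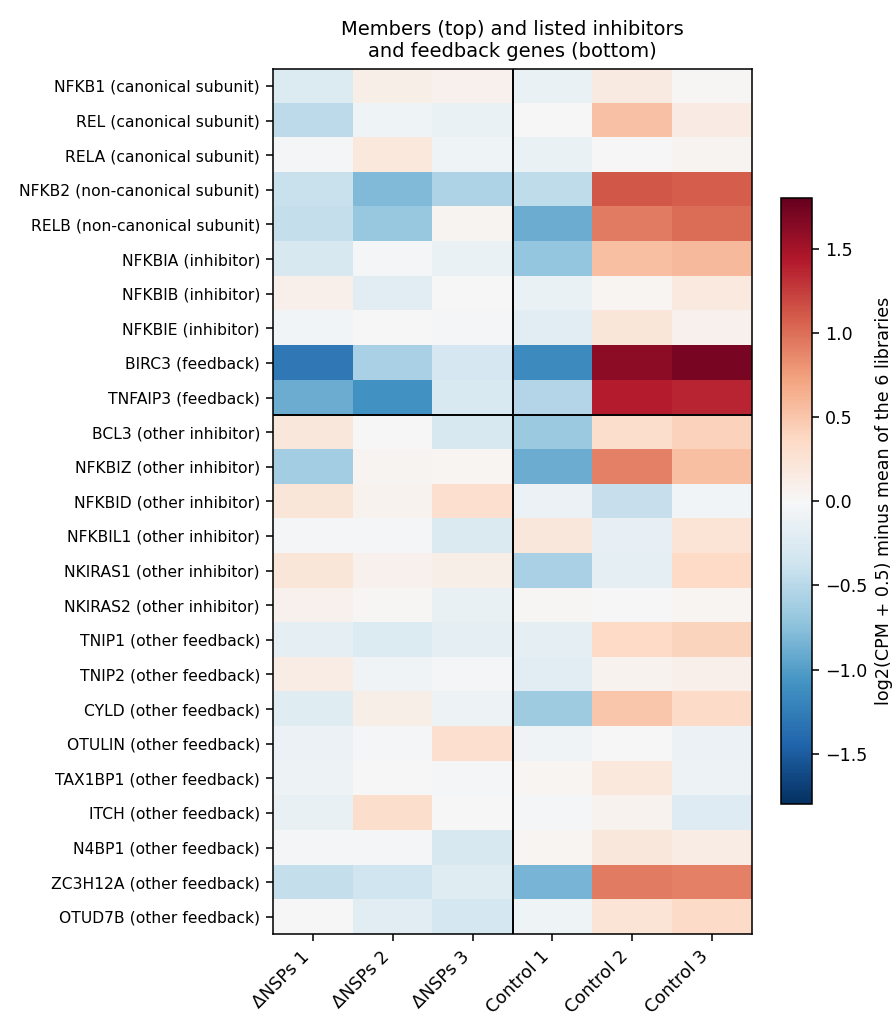
log2(CPM + 0.5) of the 10 genes (top) and of 15 other listed inhibitors and feedback genes (bottom), minus the mean of the 6 libraries for each gene. NFKB2, RELB, BIRC3, TNFAIP3 and ZC3H12A are high in Control replicates 2 and 3, and RELA stays between -0.13 and 0.2.

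Known targets went in both directions. CCL2, a chemokine gene, was at 55.2, 137.7 and 147.5 CPM in ΔNSPs, against 7.57, 10.1 and 8.84 CPM in Control. Its log2 fold change was 3.68 (SE 0.37) with an edgeR adjusted p of 0.0443, the clones lying above all Control lines. Without Control replicate 1 its edgeR adjusted p was 0.0621. CXCL8, which encodes interleukin 8, was at 6.91, 12.4 and 10.2 CPM in ΔNSPs, against 0.766, 3.98 and 1.82 CPM in Control. Its log2 fold change was 2.14 (SE 0.51), with an adjusted p of 0.171 in edgeR and 0.00129 in DESeq2.

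CXCL10, a chemokine gene that interferons also induce, had 5, 4 and 1 counts in ΔNSPs clones 1 to 3 (0.356, 0.303 and 0.0842 CPM), against 2, 549 and 446 counts in Control replicates 1 to 3 (0.17, 39.8 and 38.6 CPM). It was not tested in edgeR with all libraries. DESeq2 called it lower (adjusted p = 0.00518), and Control replicate 1 was among the clones. IL4I1, an amino acid oxidase gene, was at 1.92, 1.66 and 2.36 CPM in ΔNSPs, against 0.34, 9.13 and 9.79 CPM in Control, a log2 fold change of -1.7 (SE 0.85) with an edgeR adjusted p of 0.333. Without Control replicate 1 edgeR called CXCL10 (adjusted p = 0.00141) and IL4I1 (0.0487) lower. There CXCL10 passed the count filter through Control replicates 2 and 3, where it was high, so its call is a description. The edgeR calls were then 3 of 63 (4.76%, against 0.131% of 15232 genes), ZC3H12A included, and CCL2 was not among them.

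**Figure D5:**
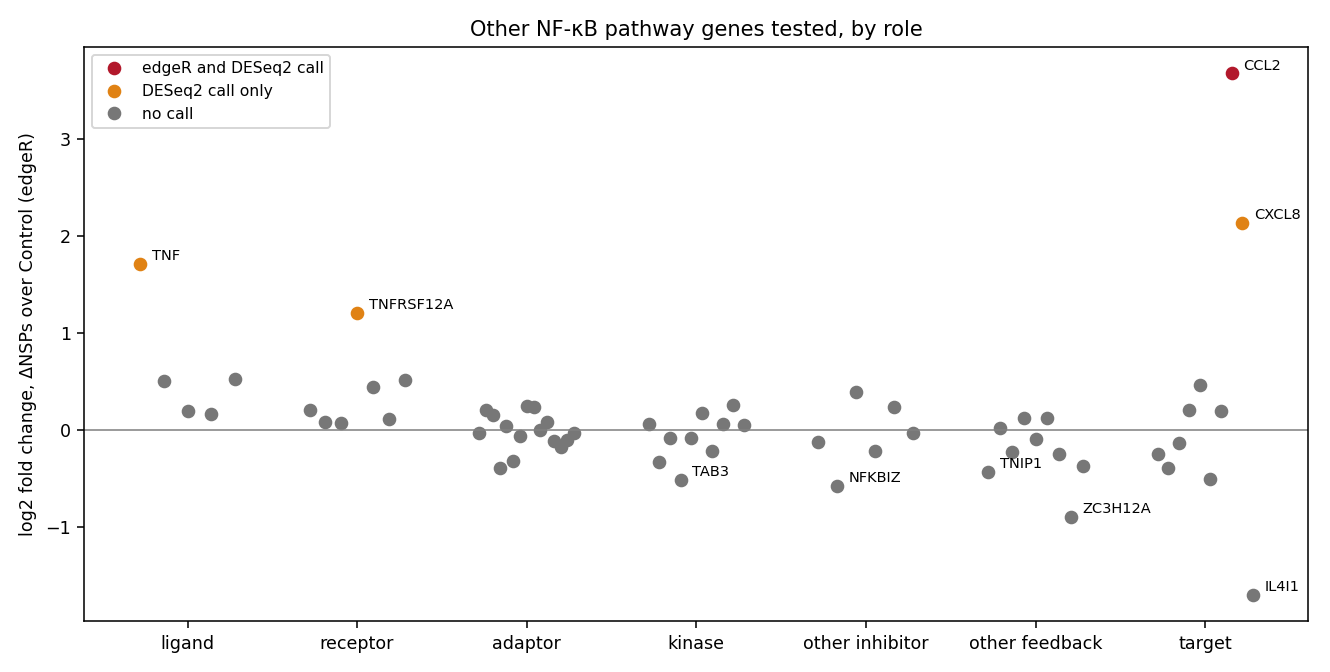
edgeR log2 fold changes (y axis, ΔNSPs over Control) of the 62 other pathway genes tested, by role, coloured by call. CCL2 at 3.68 is the edgeR call, TNF, TNFRSF12A and CXCL8 are DESeq2 calls alone, and the kinases lie between -0.51 and 0.26.

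The genes most like NFKB2 and BIRC3 were found by Pearson's r of log2(CPM + 0.5) over the 6 libraries, among 11359 and 11360 other genes that averaged 5 CPM or more. For NFKB2 they were TNIP1 (r = 0.996), ZNF230 (0.994), TMBIM1 (0.993), COLQ (0.993) and PDE4DIP (0.993). For BIRC3 they were AL121985.1 (0.990), C3 (0.986), AAK1 (0.983), ZC3H12A (0.976) and APLP2 (0.976). Among the 10 genes, TNFAIP3 ranked 19 in likeness to NFKB2 and 15 in likeness to BIRC3, while RELA ranked 5442 and 4008. Each r has 6 points and rests largely on Control replicates 2 and 3, which share their libraries across all genes, so it describes these libraries and nothing further.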

How the data were processed

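RNA counts were taken as the authors deposited them, unnormalized whole numbers for each Ensembl identifier. The submitters' processing notes list HISAT2 2.0.0, HTSeq 0.11.1, SAMtools 1.5.9 and FastQC, with GRCh38.p12 as the build. Annotation release, strand setting and filter: not given in the sources used here. The lowest sum of a gene over all libraries was 10 counts. Symbols, positions and exon lengths came from GENCODE v29 (GRCh38), matching 18771 of 18798 identifiers. Groups came from the titles.

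Groups were compared with edgeR 4.0.16 under R 4.3.3, using TMM, filterByExpr, quasi-likelihood, Benjamini-Hochberg over the 14797 genes kept, two-sided, at an adjusted p under 0.05. It was also run on simulated data in which no line deviated from its group across genes. That run therefore does not cover a Control group with 1 deviating line, as here. CPM is counts over the TMM-scaled total, and errors are SD over 3 libraries. The CPM given for 3 counts covers counting error only. Each edgeR SE was computed as the absolute log2 fold change over the square root of its F statistic. These SEs include the spread between libraries. DESeq2 1.42.0 and limma 3.58.1 (voom, sample quality weights), other size factors and filters, the replicate number as a block and leaving out each library were alternatives. DESeq2 without Control replicate 1 was added after seeing the data.

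The 10 genes and the pathway list were chosen with earlier results of these data known. The rule for named genes took all 10, the 3 targeted proteases, each pathway gene called by edgeR or DESeq2, the gene of highest mean CPM per role, and the 5 genes most like NFKB2 and BIRC3 by Pearson's r. SOD2 matched 2 identifiers and was left out. The summed level of the B cell markers is not reported here.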

Additional observations from a re-analysis of the deposited data

How the results depend on the processing

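Size factors (RLE, upper quartile), another filter or none, and limma voom kept the counts of calls within 1.5 times of the main ones, which were 3 genes in all, 0 of the 10 NF-κB genes and 1 of the other pathway genes. DESeq2 called 515, 2 and 5 in that order. Leaving out each library gave 0 to 928 genes in edgeR (928 without ΔNSPs clone 1, 20 without Control replicate 1, 0 without Control replicate 2 or 3), 0 to 2 of the 10 genes (2 without Control replicate 1) and 0 to 4 of the pathway genes (4 without ΔNSPs clone 1, 3 without Control replicate 1). DESeq2 without Control replicate 1 called 631, 5 and 8. The labels do not state that replicate numbers pair the samples. Deviations of same-numbered libraries from their group means correlated at -0.432, -0.161 and -0.14 over 14797 genes. Those of unlike-numbered libraries correlated at -0.182 to 0.29. Deviations from a mean of 3 libraries constrain each other, so these values cannot show whether samples were paired. With a replicate block edgeR called 0 genes, 0 of the 10 and 0 of the pathway genes.

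Near-zero fold changes turned sign in 6 cases: NFKB1 at 0.023 without Control replicate 2 and 0.059 without ΔNSPs clone 1, RELA at -0.032 without ΔNSPs clone 2, NFKBIB at 0.014 without Control replicate 3 and 0.016 without ΔNSPs clone 2, and NFKBIE at 0.031 without Control replicate 2. When each library was left out, the log2 fold change ran from -0.11 to 0.059 for NFKB1, -0.032 to 0.11 for RELA, -0.13 to 0.016 for NFKBIB and -0.18 to 0.031 for NFKBIE. NFKB2, RELB, NFKBIA, REL, BIRC3 and TNFAIP3 stayed negative in each alternative. The log2 difference of NFKB2 over NFKB1 ran from -1.59 to -0.87 and that of RELB over RELA from -1.36 to -0.47 when each library was left out. The cause was not tested. At 9 to 21 counts, BIRC3 is the gene that depth limits most in the clones and Control replicate 1.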

Other observations

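The 29 tested genes in which Control replicates 2 and 3 were both at least 2-fold above the other 4 libraries were listed whole, after the data were seen. They comprised 25 protein-coding genes, 3 antisense genes and 1 lincRNA gene, MIR3142HG. Beside BIRC3, TNFAIP3, NFKB2, ZC3H12A and IL4I1, they included C3, the central complement component, at 0.499, 0.984 and 0.926 CPM in ΔNSPs clones 1 to 3, against 0.426, 19.2 and 20.1 CPM in Control replicates 1 to 3. CR1, a complement receptor, was at 7.56, 2.12 and 4.04 CPM in ΔNSPs, against 5.11, 25.9 and 29.9 CPM in Control. MMP9, a gelatinase gene, was at 0.428, 2.35 and 0.926 CPM in ΔNSPs, against 1.02, 8.11 and 6.93 CPM in Control. CHI3L1, which encodes a chitinase-like protein, was at 1.5, 0 and 2.02 CPM in ΔNSPs, against 1.79, 7.03 and 7.10 CPM in Control. CD48, a surface glycoprotein of leukocytes, was at 4.70, 6.05 and 12.4 CPM in ΔNSPs, against 7.91, 25.3 and 27.3 CPM in Control. Control replicate 1 lay within or below the range of the clones in 22 of the 29 genes, the 5 described with values here included. It lay above all clones in the other 7 (AL731563.2, IFIH1, OPTN, P4HA1, PFKFB4, SULT2B1 and TMEM45A), by most in P4HA1, at 41.3, 42.5 and 45.3 CPM in ΔNSPs against 87.7, 202.5 and 240.6 CPM in Control. No shared function was tested among them.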
